A study of Mus musculus with 5 samples.

Results

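The genes of MHC class II presentation were followed by RNAseq in macrophages sorted from the aortas of atherosclerotic mice. The 7 genes were taken by symbol from the 55487 genes of the count table, and they were *H2-Aa*, *H2-Ab1*, *H2-Eb1*, *H2-DMa*, *H2-DMb1*, *Cd74* and *Ciita*. They were read in all 5 libraries, 2 labelled wild-type (WT) and 3 labelled knockout (KO), all on a Western diet. The WT libraries came from *Zeb1 WT/Apoe KO* male mice, which carry a floxed *Zeb1* (*Zeb1* fl/fl) and no *Apoe*. The KO libraries came from *Zeb1 ∆M/Apoe KO* male mice, which carry the same alleles and a Cre recombinase expressed from *Lyz2*, so that *Zeb1* is removed in the myeloid lineage, neutrophils included. Mice of both genotypes ate chow for 8 weeks and the Western diet, rich in fat and cholesterol, for 10 weeks. Viable cells positive for CD45 and F4/80 (and, per the methods, CD11b) were sorted after enzymatic digestion of the aorta. The methods state that cells of 3 mice were mixed per genotype and condition. The study describes its replicates in general as biologically independent, but neither labels nor methods say which mice went into which library, so p-values measure the spread between these libraries, which may be in part technical.

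MHC class II molecules are pairs of an α and a β chain that carry peptides from endocytosed proteins to the cell surface, where CD4+ T cells recognise them. New pairs bind the invariant chain CD74, which fills the groove and leads them into endosomes. There CD74 is digested, and the H2-DM heterodimer exchanges its last fragment for a peptide. CIITA is the coactivator that switches on the genes of the chains, of the invariant chain and of H2-DM together, and in macrophages it is induced by interferon γ. In plaques, class II is carried by macrophages, dendritic cells and B cells.

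Total counts lay between 20118545 and 50649912 per library, and 3 counts, the smallest number taken as detection, equalled 0.0592 to 0.149 CPM (counts per 1e6 counts of the library). Counts come from amplified cDNA of few cells, and PCR copies are not independent molecules, so such floors cover counting error only. KO replicate 1 stood apart from the others. It had 15553 genes with more than 3 and fewer than 100 counts, against 1635 to 5217 genes in the remaining 4 libraries, and 870 genes with at least 100 counts, against 1714 to 4421. *Zeb1* had 0 counts in 4 libraries and 22 counts in KO replicate 1, so it checked no genotype label, and *Apoe*, deleted in both genotypes, had at most 86 counts. Of 11 macrophage markers, 7 to 10 had more than 3 counts per library, and they took 2.31% to 3.58% of all counts.

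Every library held abundant class II transcripts, but the 7 genes did not appear as a block. *Cd74*, *H2-Ab1* and *H2-Eb1* had between 13697 and 558926 counts in each of the 5 libraries. *H2-Aa* had 29877 counts or more in 4 libraries and 12 in the fifth. *H2-DMa* and *H2-DMb1* had 6913 counts or more in 3 libraries each, and *Ciita* had over 20 counts in 1 library. Together the 7 genes took 2.43% and 1.23% of the counts of WT replicates 1 and 2, and 0.893%, 0.935% and 2.73% of those of KO replicates 1, 2 and 3. The lowest and the highest share were thus both in KO libraries. In bulk samples, fewer cells of a type and less RNA per cell cannot be told apart. Of the 263 genes of the table that reached 50000 counts in at least 1 library, 46.0% had 100 counts or more in all 5. Of the 4 class II genes that reached 50000 counts, *Cd74*, *H2-Ab1* and *H2-Eb1* did so.

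**Figure D1:**
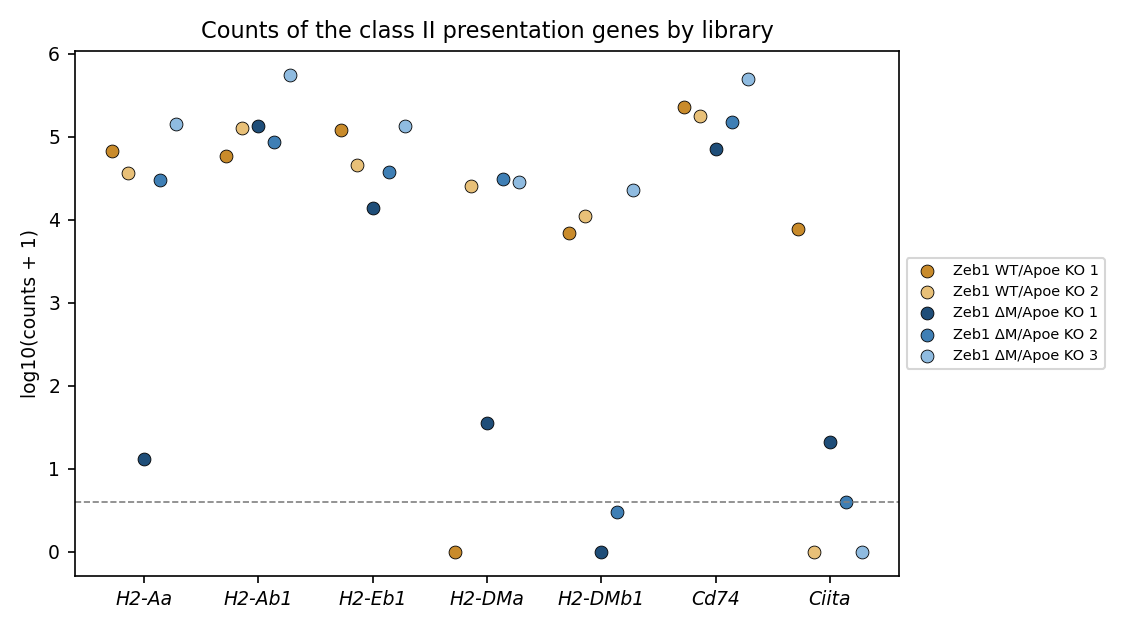
Counts of the 7 MHC class II presentation genes in each library, as log10(counts + 1), with 1 point per library, orange for WT (*Zeb1 WT/Apoe KO*) and blue for KO (*Zeb1 ∆M/Apoe KO*). The dashed line marks 3 counts. *Cd74*, *H2-Ab1* and *H2-Eb1* have 13697 counts or more in every library, whereas the other 4 genes each fall to 12 counts or fewer, or to 0, in at least 1 library.

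The classical chains are described first. *H2-Aa* (ENSMUSG00000036594.15) encodes the α chain of the I-A molecule and lies on the minus strand of chromosome 17 of GRCm38 from 34282744 to 34287823. *H2-Ab1* (ENSMUSG00000073421.6) encodes its β chain and lies on the plus strand from 34257689 to 34269419. *H2-Eb1* (ENSMUSG00000060586.11), from 34305867 to 34316674, encodes the β chain of the I-E molecule. The I-E α chain gene, *H2-Ea*, is annotated as a polymorphic pseudogene, and C57BL/6 mice do not make the chain. It had 0 counts in all 5 libraries, which allows up to 3 counts, that is, up to 0.0592 to 0.149 CPM.

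The starts of *H2-Aa*, *H2-Eb1* and *H2-DMb1* are shown because RFX, CREB and NF-Y proteins, with CIITA, act on the X and Y boxes that lie there. RefSeq promoters of GRCm38.p6, of 250 bases before and 50 bases after each start, were matched for 4 of the 7 genes, the fourth being *H2-DMa*. Sequences run 5′ to 3′ on the strand of the gene. Capitals mark the letters CTGATTGG (Y box) in *H2-Aa* and *H2-Eb1*. They also mark a match to the core of the X box, further upstream in *H2-Eb1* and alone in *H2-DMb1*. Both were searched on both strands as fixed patterns, so boxes with other letters are not marked. Thus gtgattgg, which follows the X box core in *H2-DMb1*, is in lower case. Missing capitals do not show that a box is missing.
H2-Aa, chr17:34287774-34288073, minus strand: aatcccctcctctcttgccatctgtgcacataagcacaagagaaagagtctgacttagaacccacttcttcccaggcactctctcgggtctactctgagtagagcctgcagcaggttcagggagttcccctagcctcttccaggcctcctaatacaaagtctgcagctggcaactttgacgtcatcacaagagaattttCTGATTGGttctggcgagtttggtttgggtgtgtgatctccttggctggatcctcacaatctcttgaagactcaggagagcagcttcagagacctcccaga
H2-Eb1, chr17:34305617-34305916, plus strand: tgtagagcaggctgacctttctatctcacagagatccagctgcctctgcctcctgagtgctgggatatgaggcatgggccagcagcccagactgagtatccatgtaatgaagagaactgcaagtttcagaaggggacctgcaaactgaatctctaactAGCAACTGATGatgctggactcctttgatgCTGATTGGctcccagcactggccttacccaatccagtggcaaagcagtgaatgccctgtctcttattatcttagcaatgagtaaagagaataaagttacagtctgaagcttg
H2-DMb1, chr17:34152941-34153240, plus strand: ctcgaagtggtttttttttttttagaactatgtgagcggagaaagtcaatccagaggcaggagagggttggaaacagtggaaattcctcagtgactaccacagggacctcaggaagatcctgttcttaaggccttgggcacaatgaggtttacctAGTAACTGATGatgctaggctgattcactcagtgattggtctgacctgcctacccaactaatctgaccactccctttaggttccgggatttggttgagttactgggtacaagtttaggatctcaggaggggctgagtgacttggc
The Y box letters begin 51 bases before the start of *H2-Aa* and 62 bases before that of *H2-Eb1*. The X box core begins 92 bases before the start of *H2-Eb1* and 95 bases before that of *H2-DMb1*. Of all 32851 promoters in the same set, 4.10% hold the Y box letters, 0.968% the X box core and 0.0304% both. Neither *H2-DMa* promoter of the set, at 34122582 to 34122881 and 34125268 to 34125567, holds either of these letter patterns. The first overlaps the gene *Brd2* on the other strand, which ends at 34122634. Starts elsewhere in *H2-DMa*, which reaches to 34139101, were not searched, so its boxes remain unexamined there.

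*H2-Ab1* varied less than *H2-Aa*. It had 59232 and 127153 counts in WT replicates 1 and 2, and 133667, 85823 and 558926 counts in KO replicates 1, 2 and 3. CPM scaled by TMM, a normalization that compares the bulk of genes between libraries, were 2145 and 3690 in the WT libraries and 11030, 2007 and 11125 in the KO libraries. The lowest and the 2 highest values were in KO libraries, so the genotypes overlapped. The means were 2917 ± 1093 (SD, n = 2) and 8054 ± 5237 (SD, n = 3) TMM CPM. The log2 fold change of KO over WT was 1.47 (SE 1.89, adjusted p = 1 in the quasi-likelihood test of edgeR, and p = 0.4 by exact permutation, two-sided, for which 2 libraries against 3 cannot go below 0.1). Without any 1 library it lay between 0.99 and 1.88, and it had the same sign under all 4 scalings.

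*H2-Aa*, the partner of *H2-Ab1* in the same molecule, had 67086 and 36234 counts in WT and 12, 29877 and 140180 in KO. KO replicate 1 thus held 12 counts of the α chain beside 133667 counts of the β chain. In TMM CPM the values were 2429 and 1051 against 0.990, 699 and 2790, and the KO libraries held both the lowest and the highest. The means were 1740 ± 974 (SD, n = 2) and 1163 ± 1451 (SD, n = 3) TMM CPM. The log2 fold change was −0.58 (SE 2.56, adjusted p = 1 from edgeR, exact permutation p = 0.7). Without KO replicate 1 it was −0.28, and without WT replicate 1 it was 0.27. With upper-quartile factors it was −6.06, and with the replicate number as a block −5.87.

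*H2-Eb1* had 118912 and 45952 counts in WT and 13697, 37229 and 134814 in KO. Its TMM CPM were 4305 and 1333 against 1130, 870 and 2683, again with overlap. The means were 2819 ± 2101 (SD, n = 2) and 1561 ± 980 (SD, n = 3) TMM CPM. The log2 fold change was −0.85 (SE 2.31, adjusted p = 1 from edgeR, exact permutation p = 0.5), and 0.26 without WT replicate 1, the library with the highest value. With upper-quartile factors it was −3.67.

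*Cd74* (ENSMUSG00000024610.15), the invariant chain, lies outside the class II region, on the plus strand of chromosome 18 from 60803848 to 60812652. It had 229078 and 179670 counts in WT and 70314, 150385 and 498389 in KO. The TMM CPM were 8294 and 5214 against 5802, 3516 and 9920, which places both WT values inside the range of the KO values. The means of 6754 ± 2178 (SD, n = 2) and 6413 ± 3245 (SD, n = 3) TMM CPM differed by less than either SD. The log2 fold change was −0.075 (SE 1.75, adjusted p = 1 from edgeR, exact permutation p = 0.9). It was 0.30 without WT replicate 1, 0.20 without KO replicate 2, −0.56 with total counts and −2.30 with upper-quartile factors in place of TMM.

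Among genes of like abundance, *Cd74* was also one of the steadier ones. By mean log2 CPM it ranked 8 of the 7905 genes tested, with *H2-Ab1* at rank 17, *H2-Eb1* at rank 40, *H2-Aa* at rank 158, *H2-DMa* at rank 676, *H2-DMb1* at rank 1172 and *Ciita* at rank 4230. The SD of its log2 TMM CPM over the 5 libraries was 0.59, against a median of 3.86 over all genes tested and 1.18 over the 50 genes of highest mean. Of these 50 genes, 4 had a smaller SD than *Cd74*, 20 than *H2-Eb1* (0.95) and 26 than *H2-Ab1* (1.22). With total counts only, the SD of *Cd74* was 0.83, and 19 of the 50 genes had a smaller one, so its place depended on the scaling. *H2-Aa* (4.76), *Ciita* (5.18), *H2-DMa* (6.17) and *H2-DMb1* (6.60) were above the median of all genes tested.

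**Figure D2:**
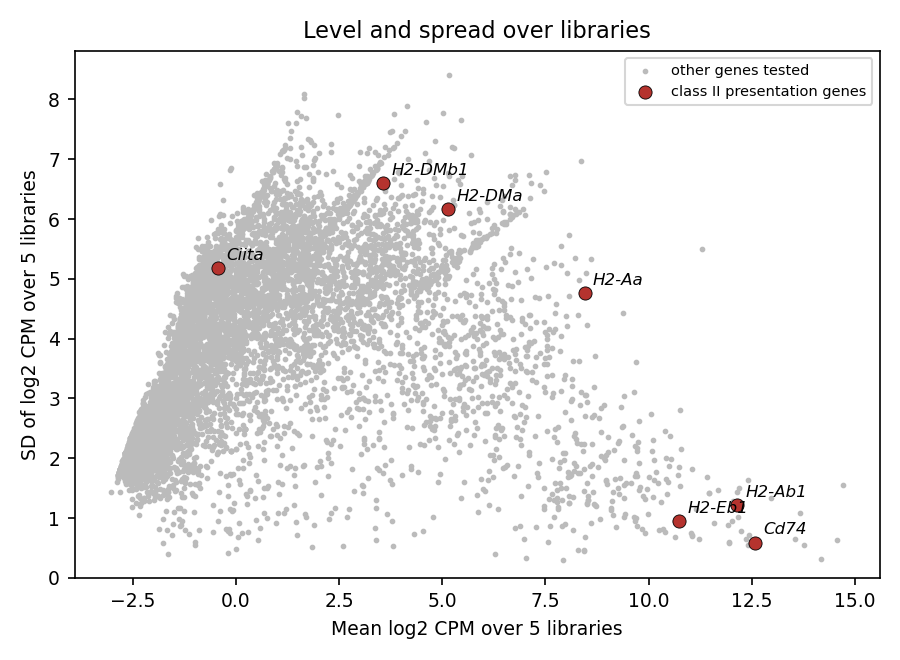
Mean (x axis) and SD (y axis) of log2 TMM CPM over the 5 libraries for the 7905 genes tested (grey) and the 7 class II presentation genes (red). *Cd74*, *H2-Ab1* and *H2-Eb1* lie at the lower right with SDs of 0.59, 1.22 and 0.95, and the other 4 genes lie above the median SD of 3.86.

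H2-DM is a heterodimer of the products of *H2-DMa* and *H2-DMb1*, and both chains are needed to load peptides. *H2-DMa* (ENSMUSG00000037649.10, chromosome 17, plus strand, 34119541 to 34139101) had 0 and 25797 counts in WT and 35, 31295 and 28663 in KO. *H2-DMb1* (ENSMUSG00000079547.4, 34153072 to 34160230) had 6913 and 11163 counts in WT and 0, 2 and 22498 in KO. Both chains were therefore present at over 100 counts in 2 libraries, WT replicate 2 and KO replicate 3. WT replicate 1 held the β chain alone, KO replicate 2 the α chain alone, and KO replicate 1 had 35 and 0 counts. Such gaps were common in the table, where 28.3% of the 2272 genes that reached 10000 counts in at least 1 library, these 2 included, had more than 3 counts in all 5.

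For *H2-DMa*, the TMM CPM were 0 and 749 against 2.89, 732 and 571, and its log2 fold change was 0.22 (SE 3.43, adjusted p = 1 from edgeR, exact permutation p = 0.7). This value turned to −0.67 without WT replicate 1, to −0.29 without KO replicate 2 and to −0.033 without KO replicate 3, and it was 16.89 without WT replicate 2, when the remaining WT library had 0 counts. A fitted value against 0 counts depends on the prior count and is no measure of size. For *H2-DMb1*, the TMM CPM were 250 and 324 against 0, 0.0468 and 448, and the log2 fold change was −0.94 (SE 3.94, adjusted p = 1 from edgeR, exact permutation p = 0.4). It was −13.18 without KO replicate 3, with 0 and 2 counts left in KO. The sign of the first and the size of both thus rested on single libraries. *H2-DMa* shares exon sequence with *Brd2* on the other strand, and RSEM was run with default options, which do not use strand. *Brd2* had 0 and 7 against 10, 0 and 2111 counts. *H2-DMb1* has a near copy, *H2-DMb2*, between which reads could be divided, and *H2-DMb2* had 43 and 3 against 0, 0 and 3 counts.

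*Ciita* (ENSMUSG00000022504.10, chromosome 16, plus strand, 10480059 to 10528418) was counted in effect in a single library. It had 7731 and 0 counts in WT and 20, 3 and 0 in KO. WT replicate 2 and KO replicate 3, with 127153 and 558926 counts of *H2-Ab1*, were the libraries with 0 counts of *Ciita*, where up to 3 counts would be compatible with the depth, that is, 0.0867 and 0.0592 CPM. The TMM CPM were 280 and 0 against 1.65, 0.0701 and 0, and the genotypes overlapped. The log2 fold change was −7.93 (SE 6.04, adjusted p = 1 from edgeR, exact permutation p = 0.4), and 6.99 without WT replicate 1, when the remaining WT library had 0 counts. *Dexi*, which overlaps exons of *Ciita* on the other strand, had at most 7 counts in any library.

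Across the 7 genes, the genotype comparison therefore gave no call. edgeR tested 7905 genes, which include all 7, and called 0 of the 7 (0% of all genes, that is 0 genes, had an adjusted p under 0.05, and 86 genes an unadjusted p under 0.05, of which 0 were class II genes). DESeq2 with default options, the tool of the study, also called 0 of the 7, where its background was 12.1% of 6519 genes with an adjusted p. It gave *H2-DMb1* no adjusted p. At this spread (common dispersion 6.44, SEs of 1.75 to 6.04 on the log2 scale) the absence of a call does not show that levels were alike. limma-voom with quality weights called 0 of the 7, against 2.96% of all genes tested. For 0 of the 7 genes were the CPM of the 2 genotypes without overlap, against 11.2% of all genes tested. The median log2 fold change of the 7 genes was −0.58, with 2 of 7 above 0, while that of all genes tested was 0.78, with 60.9% above 0. Without WT replicate 1, the median of the 7 genes was 0.27, with 5 of 7 above 0, and that of all genes 6.42, with 72.3% above 0. Both medians moved with the scaling. With total counts, that of the 7 genes was −0.87 and that of all genes 0.13, with RLE factors −1.10 and 1.24, and with upper-quartile factors −3.67 and 0.29, and 2 of the 7 genes were above 0 under each of these. With limma-voom, the medians were −0.45 and −0.30, with 3 of 7 and 46.7% above 0. In an added DESeq2 fit that left out KO replicate 1, chosen after the data were seen, 1 of the 7 was called, against 30.0% of 7757 genes. That gene was *Ciita* (log2 fold change −12.59, adjusted p = 0.0137 from DESeq2), whose WT counts were 7731 and 0.

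**Figure D3:**
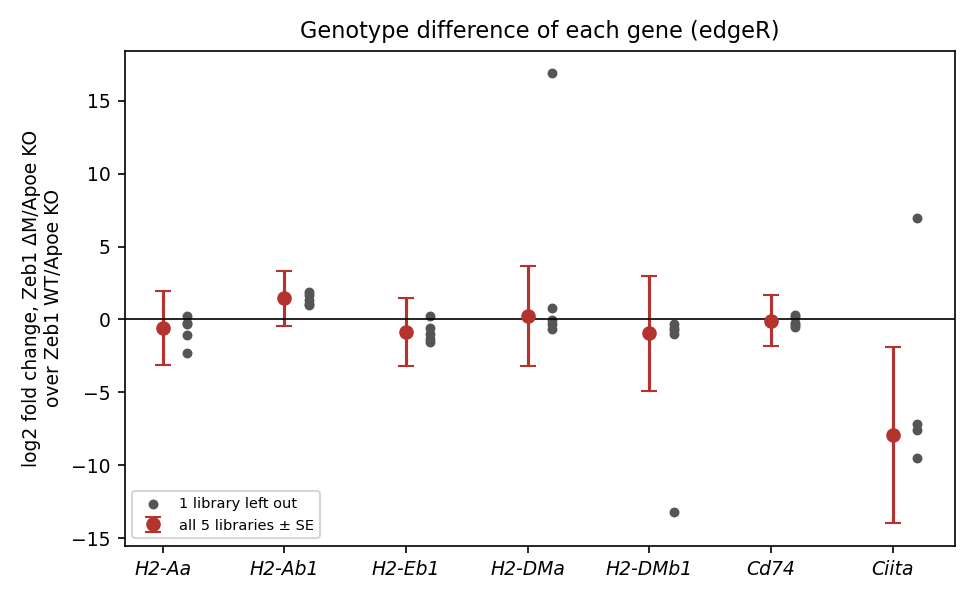
Log2 fold change of each class II presentation gene, KO over WT, from edgeR (red points, bars ± SE) and with 1 library left out in turn (grey points, 5 per gene and 4 for *Ciita*, which did not pass the filter without KO replicate 1). All bars except those of *Ciita* cross 0, and for *Ciita* 1 grey point, at 6.99, lies on the other side of 0.

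Ratios between partner genes need no scaling between libraries. Counts per kilobase of annotated exon (GENCODE M21) were compared within each library. *H2-Aa* to *H2-Ab1* was 0.766 and 0.193 in the WT libraries and 6.07e-05, 0.235 and 0.170 in the KO libraries. The values of WT replicate 2 and KO replicates 2 and 3 lay close together across the genotypes, and KO replicate 1 was far below them. *H2-Eb1* to *H2-Ab1* was 2.65 and 0.477 against 0.135, 0.573 and 0.319. Here WT replicate 1 was the library with the highest ratio, and the genotypes overlapped. *H2-DMa* to *H2-DMb1* could be formed in 2 libraries only, and was 1.13 in WT replicate 2 and 0.621 in KO replicate 3.

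*Cd74* to the sum of *H2-Aa*, *H2-Ab1* and *H2-Eb1* was 1.34 and 1.29 in the WT libraries and 0.709, 1.48 and 0.916 in the KO libraries. It was the narrowest of the 3 ratios that could be formed in all 5 libraries. Its divisor is a sum, in which the 12 counts of *H2-Aa* in KO replicate 1 stand beside 133667 of *H2-Ab1*. A gap in a single gene therefore moves it less than the ratios of single genes, and their widths are not directly comparable. With the length of the principal transcript in place of all exons, an alternative chosen after seeing the data, the same ratio lay between 0.421 and 0.905, and that of *H2-Aa* to *H2-Ab1* between 9.65e-05 and 1.22.

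**Figure D4:**
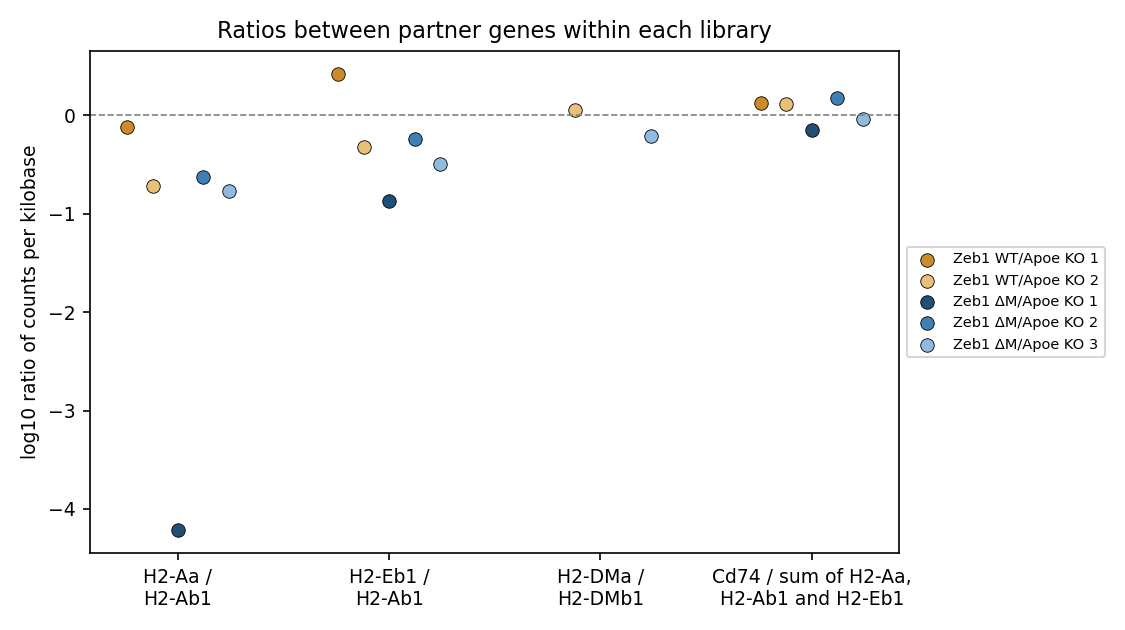
Ratios of counts per kilobase of exon between partner genes within each library, on a log10 scale, with 1 point per library. The dashed line marks equal counts per kilobase. *Cd74* to the summed classical chains, whose sum buffers a gap in a single gene, stays between 0.709 and 1.48. The ratio of *H2-Aa* to *H2-Ab1* reaches 6.07e-05 in KO replicate 1.

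The summed level of *H2-Aa*, *H2-Ab1*, *H2-Eb1* and *Cd74* was 17173 and 11288 TMM CPM in the WT group and 17963, 7092 and 26518 in the KO group. Both WT values lay inside the KO range. The means were 14231 ± 4161 (SD, n = 2) and 17191 ± 9736 (SD, n = 3), and the mean of the log2 values was 0.11 higher in KO. This difference was −0.38 with total counts and −0.96 with upper-quartile factors in place of TMM.

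Levels can be compared between genes per length, here as CPM of total counts per kilobase of exon. With all exons, *Cd74* led in 4 libraries, with 6782 and 3093 in the WT libraries and 2504 and 5861 in KO replicates 2 and 3. In KO replicate 1, *H2-Ab1* was first with 2136 and *Cd74* second with 1718. *H2-Ab1* had 1146 and 1431 in the WT libraries and 934 and 4297 in KO replicates 2 and 3. Among the classical chains *H2-Ab1* was highest in 4 libraries, and *H2-Eb1* in WT replicate 1, with 3040. The H2-DM chains reached at most 264, and *Ciita* at most 40.3. By median the order was *Cd74*, *H2-Ab1*, *H2-Eb1*, *H2-Aa*, *H2-DMb1*, *H2-DMa* and *Ciita*. Neighbours in this order overlapped over the 5 libraries, while every value of *Cd74*, *H2-Ab1* and *H2-Eb1* was above every value of *H2-DMa*, *H2-DMb1* and *Ciita*. The order depended on the lengths used. With the principal transcript, *H2-Aa* (median 928) came before *H2-Eb1* (796), and *H2-DMa* (341) before *H2-DMb1* (230). The highest value of *H2-DMa*, 528 in KO replicate 2, was then above the lowest of *H2-Eb1*, 337 in KO replicate 1, and *H2-Ab1* led in KO replicate 3 as well, with 9105 against 6979 for *Cd74*.

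A list of 31 other genes of the pathway was read from the table. Of these 31 genes, 17 passed the filter of edgeR, 0 were called and 0 had an unadjusted p under 0.05. Among those 17 genes, 0 had CPM without overlap between the genotypes, against 11.2% of all genes tested. DESeq2, against 12.1% of all genes, and limma-voom, against 2.96%, each called 1 of them, *Ifi30*, which encodes the thiol reductase GILT that opens disulfide bonds of antigens. *Ifi30* had 1 and 0 counts in WT and 0, 8413 and 9910 in KO. Its log2 fold change was 12.58 in edgeR (SE 8.31, adjusted p = 1), and the adjusted p was 0.0200 in DESeq2 and 0.000988 in limma-voom. KO replicate 1 was at 0 like WT replicate 2, so the genotypes overlapped. In the added DESeq2 fit without KO replicate 1, 4 of the 31 were called, namely *Ifi30*, *Jak1*, *Jak2* and *Nfyb*, against the 30.0% of all genes, and each of the last 3 had over 100 counts in a single library.

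Of the enzymes that cut antigens and the invariant chain, *Ctss*, the cathepsin that digests CD74 in antigen-presenting cells, was abundant throughout. It had 28660 and 169426 counts in WT and 228337, 155833 and 315973 in KO. *Ctsb* was also present in every library, with 1836 and 242975 against 1187, 79596 and 202396 counts. *Ctsd*, an aspartic cathepsin, had 44 and 29639 against 4, 24838 and 20147 counts. *Ctsl*, a cysteine cathepsin, had 9865 and 4048 against 3, 6964 and 2 counts. These 2 enzymes thus differed in which libraries they were nearly missing from, and the genotypes overlapped for both. *Lgmn*, an asparaginyl endopeptidase, had 0 and 21616 against 0, 21197 and 65544 counts. *Lgmn* was thus at 0 in replicate 1 of both genotypes, and so was present or absent in the libraries in the same way as *H2-DMa*, apart from the 35 counts of the latter in KO replicate 1.

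Regulators of the class II promoters were scarce or held by few libraries. The RFX subunits *Rfx5*, *Rfxank* and *Rfxap*, which bind the X box, had at most 7 counts in any library. The NF-Y subunits, which bind the Y box, were higher in single libraries. *Nfyb* had 5383 counts in WT replicate 2 and at most 7 in the remaining libraries, *Nfyc* had 178 counts there and at most 21 elsewhere, and *Nfya* had 486 counts in KO replicate 2 and 2 to 98 elsewhere. *Creb1* had 3 and 3474 against 45, 7 and 525 counts. In no library were all 3 RFX and all 3 NF-Y genes above 3 counts, and each library had at least 13697 counts of *H2-Eb1*. Gaps were common in the table, where 14.1% of the 7341 genes that reached 100 counts in at least 1 library had more than 3 counts in all 5.

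Interferon γ signals through *Ifngr1*, *Ifngr2*, *Jak1* and *Jak2* to *Irf1*, which acts on the *Ciita* promoter, and *Irf8* and *Spi1* are myeloid factors of the same network. *Ifngr1* had 27 and 66148 counts in WT and 3047, 36755 and 52712 in KO. *Irf8* had 32623 and 4184 against 953, 3 and 8233 counts, and was highest in WT replicate 1, the library that held *Ciita*. In that library *Irf1* had 16 and *Jak2* 0 counts. *Irf1* had 413 counts in WT replicate 2, with 0 counts of *Ciita*, and 2610 in KO replicate 2, with 3.

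Costimulatory ligands accompany class II on presenting cells. *Cd86* had 682 and 4697 counts in WT and 9, 0 and 34077 in KO. *Cd80* had at most 4 and *Cd40* at most 20 counts in any library. *Marchf1*, a ubiquitin ligase that removes class II from the surface, had 1434 counts in KO replicate 3 and at most 16 in the others. KO replicate 3, the library with the most counts in total, thus had the most counts of *Cd86* and *Marchf1*, and also of *H2-Aa*, *H2-Ab1*, *H2-Eb1* and *Cd74*. In TMM CPM it was highest in *H2-Aa*, *H2-Ab1* and *Cd74* but not in *H2-Eb1*, for which WT replicate 1 was. The chains with narrow expression in B cells and thymus, *H2-Oa* and *H2-Ob*, had at most 12 counts, in KO replicate 1, and *H2-Eb2* at most 11.

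**Figure D5:**
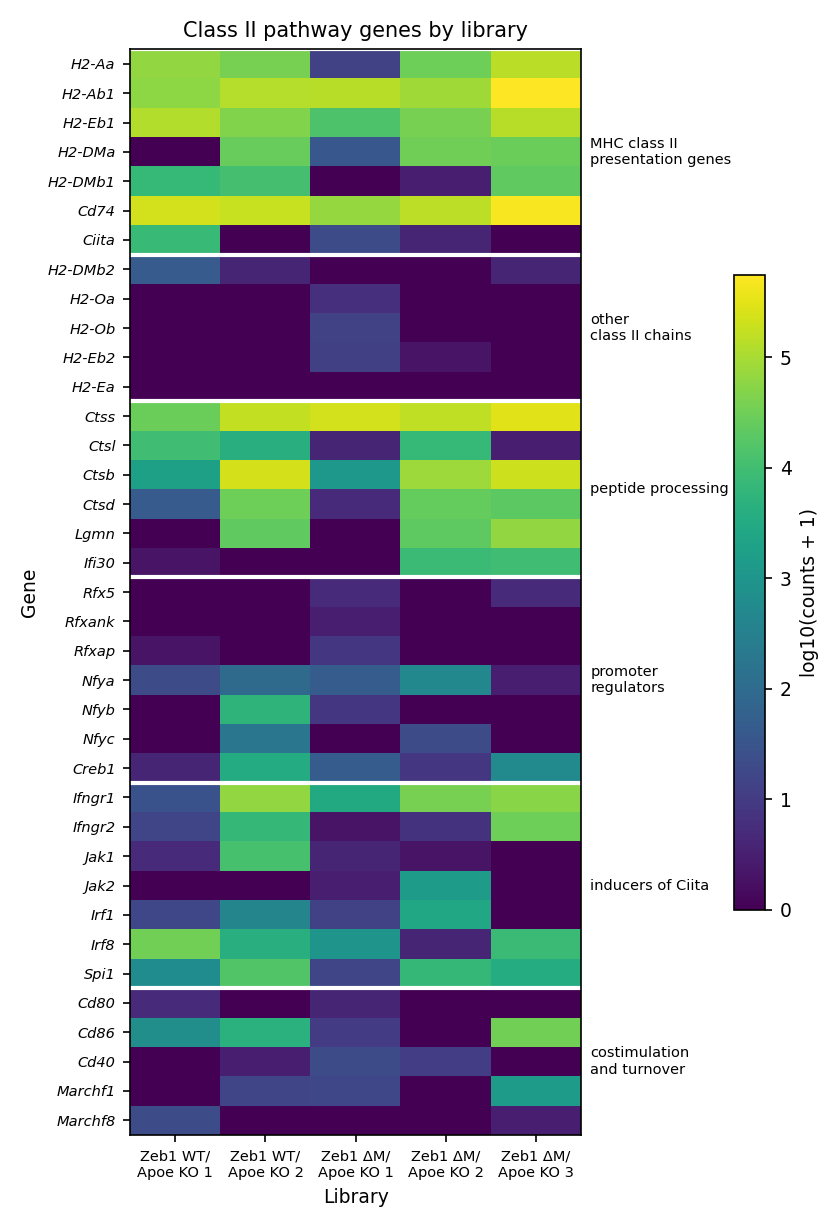
Counts, as log10(counts + 1), of the 7 class II presentation genes and other genes of the pathway (rows, in groups) in the 5 libraries (columns). *Cd74*, *H2-Ab1*, *H2-Eb1* and *Ctss* are bright in every library, and many other genes are bright in some libraries and dark in others of the same genotype.

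Class II is also a property of dendritic cells and B cells, so their markers were read in the same libraries. Of 8 dendritic cell markers, 1 to 6 had more than 3 counts per library, and their summed level was 3.98 and 139 CPM of total counts in WT and 3.61, 0.196 and 444 in the KO libraries. *Flt3*, *Xcr1* and *Clec9a* had at most 18 counts in any library. *Cd209a*, a lectin of monocyte-derived dendritic cells, had 21805 counts in KO replicate 3, the library with the highest class II share, and at most 13 in the others. *Itgax*, which encodes CD11c, had 675 counts in the same library and 0 in the others. *Batf3*, a factor of conventional dendritic cells, had 4804 counts in WT replicate 2, all of the summed level there, and at most 9 elsewhere. Of 7 B cell markers, 1 to 4 had more than 3 counts per library, and the summed level was 451 and 563 against 4.02, 637 and 1478 CPM. It came mostly from *Ighm*, with up to 73037 counts in KO replicate 3, and in WT replicate 1 also from *Igkc*, with 4565 counts. By contrast, *Cd79a* and *Cd79b*, which every B cell uses, were at 0 in all 5 libraries and *Ms4a1* had at most 35 counts. The part of either cell type in the class II counts was not tested. T cell markers (6) summed to between 1.15 CPM in KO replicate 1 and 2698 CPM in WT replicate 2, neutrophil markers (5) to between 138 and 3592 CPM, endothelial markers (4) to at most 72.3 CPM and fibroblast markers (4) to at most 531 CPM. Smooth muscle markers (4) had 11 counts in all, in KO replicate 1.

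Genes with a profile over the 5 libraries near an average of class II genes were sought. The search covered 1999 genes with at least 100 counts in 3 or more libraries. The measure was the root mean square difference between mean-centred log2 TMM CPM and the average profile of *H2-Aa*, *H2-Ab1*, *H2-Eb1* and *Cd74*. These profiles disagreed in KO replicate 1, with centred values of −8.38, 1.28, −0.61 and −0.082 in this order. The average there, −1.95, was set by *H2-Aa*, so nearness to the average is not nearness to each of these genes. The 5 nearest were *C230062I16Rik* (0.42), *Aif1* (0.46), *Adgre1* (0.47), *Rap2b* (0.51) and *Ddx5* (0.54), against a median of 3.73 over the 1999 genes. *Aif1* encodes the macrophage protein IBA1. *Adgre1* encodes F4/80, the antigen used for the sort, and had 9368 and 11689 counts in WT and 1068, 4404 and 38190 in KO. Like *H2-Aa* in TMM CPM, it was lowest in KO replicate 1 and highest in KO replicate 3. The nearness is a description over 5 libraries.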

How the data were processed

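RNAseq was measured in 5 libraries of aortic macrophages, 2 of *Zeb1 WT/Apoe KO* and 3 of *Zeb1 ∆M/Apoe KO* mice, grouped by their labels. The authors aligned paired-end reads to GRCm38 with STAR 2.5.3a, quantified genes with RSEM 1.3.0 (versions per the submitters' processing notes) and GENCODE M25, and deposited expected counts as whole numbers, unnormalized. These were used as deposited. Genes passed filterByExpr (minimum count 10), were scaled by TMM (factors 1.42, 1.06, 0.515, 1.25 and 1.03) and compared with the quasi-likelihood test of edgeR 4.0.16 in R 4.3.3, without covariates, with Benjamini-Hochberg adjustment over all genes tested and a threshold of 0.05. Log2 CPM used a prior count of 2. Single genes also had a two-sided exact permutation test over 10 divisions of the libraries. Total counts were 20118545 to 50649912, a floor of 3 counts was used, and p-values measure the spread between these libraries. DESeq2 1.42.0, limma 3.58.1 (voom), other scalings and filters, the replicate number as a block and each library left out were alternatives. The test was tested on simulated data. The genes, lists and tests were chosen with earlier results of these data known. Named genes were the 7 genes, the pathway lists, markers, and the 5 genes with the nearest profile. Other genes named, such as those overlapping a named gene, were added after their values were seen. Coordinates and exon lengths are from GENCODE M21 (GRCm38), which held 55227 of 55487 gene identifiers. *Brd2*, *Dexi* and the neighbours on chromosome 17 were taken from it. Promoters are from RefSeq (GRCm38.p6). One gene of the pathway lists enters the counts but is not reported here. Figures used Python 3.11.15 and matplotlib 3.10.9.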

Additional observations from a re-analysis of the deposited data

How the results depend on the processing

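edgeR called 0 genes, 0 of the 7 class II genes and 0 of the other pathway genes under each alternative of scaling, filter, threshold of 0.1 and left-out library. DESeq2 called 790 genes, limma-voom 234, and DESeq2 without KO replicate 1, chosen after seeing the data, 2328. These called 0, 0 and 1 class II genes and 1, 1 and 4 other pathway genes. The replicate number as a block gave 0 calls, with 7 genes at an unadjusted p under 0.05. The labels say only that libraries share a number, the deviations of replicates 1 and 2 correlated at 0.18 across genes, and the pairing changed no call.

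The log2 difference of the summed *H2-Aa*, *H2-Ab1*, *H2-Eb1* and *Cd74* was 0.11, −0.38 with total counts and −0.96 with upper-quartile factors. With 1 library left out it lay between −0.30 and 0.65, below 0 without WT replicate 2 (−0.19), KO replicate 1 (−0.022) or KO replicate 3 (−0.30). With 1 library left out, log2 fold changes crossed 0 for *H2-Aa* (−2.33 to 0.27), *H2-Eb1* (−1.57 to 0.26), *H2-DMa* (−0.67 to 16.89), *Cd74* (−0.51 to 0.30) and *Ciita* (−9.52 to 6.99), in each case without WT replicate 1 and for *H2-DMa* and *Cd74* also without KO replicate 2, for *H2-DMa* without KO replicate 3. They did not cross 0 for *H2-Ab1* (0.99 to 1.88) and *H2-DMb1* (−13.18 to −0.29). limma-voom gave 0.040 for *Cd74*, 6.95 for *H2-DMa*, −5.60 for *H2-DMb1* and −5.50 for *Ciita*. Upper-quartile factors gave 0.49 for *H2-Ab1*, 1.07 for *H2-DMa* and −6.00 for *H2-DMb1*. The block gave 0.74, 3.88 and −13.63 for these, −1.27 for *H2-Eb1*, −0.54 for *Cd74* and −2.25 for *Ciita*. With principal transcript lengths, the median ratio of *H2-DMa* to *H2-DMb1* moved from 0.874 to 1.52, by construction. That of *Cd74* to the classical chains moved from 1.29 to 0.774, and that of *H2-Aa* to *H2-Ab1* from 0.193 to 0.306. The median ratio of *H2-Eb1* to *H2-Ab1* moved from 0.477 to 0.262, with values between 0.0744 and 1.46 over the libraries. Where 1 WT library remains, it is assumed to vary like the KO libraries. Depth limits detection to about 3 counts, and spread between libraries limits each fold change.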

Other observations

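The 5 class II genes on chromosome 17 lie within 197 kb (34119541 to 34316674 of GRCm38), beside genes of peptide supply to class I. The neighbours were read after the values of the 7 genes were seen. *Psmb8*, an immunoproteasome subunit, had 19092 and 27918 counts in WT and 20, 24799 and 29434 in KO. *Psmb9*, another subunit, had 0 and 5865 against 24, 8552 and 16687 counts. *Psmb9* and *H2-DMa* were thus at 0 in WT replicate 1, under 100 counts in KO replicate 1 and at least 5865 in the remaining 3 libraries. The macrophage genes *Cd68* and *C1qa*, which are not neighbours, had the same pattern. *Cd68* had 0 and 44664 against 10, 36172 and 46735 counts, and *C1qa* 0 and 53826 against 5, 48430 and 77519. It was not general to macrophage genes, as 5 of the 11 macrophage markers had at least 100 counts in all 5 libraries. One of these, *C1qb*, had 38760 counts in WT replicate 1 and 398502 in KO replicate 1. The peptide transporter genes *Tap1* and *Tap2* had at most 23 and 9 counts in any library.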
